A study of Mus musculus with 4 samples.

Results

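The 10 genes described here carry growth hormone and insulin signals in the liver, namely Ghr, Igf1, Igfals, Igfbp1, Igfbp2, Socs2, Insr, Irs1, Irs2 and Lepr. They were chosen by name, and all 10 were among the 54464 genes of the deposited count matrix. They were followed across hepatocyte clusters, across the other cell types and between genotypes in single-nucleus RNA-Seq (snRNA-Seq) of livers from 6 mice, 3 of them WT and 3 lacking Nampt in hepatocytes (HNKO). WT mice were C57BL6/BomTac littermates with floxed Nampt alleles and no Cre. HNKO mice carried the same floxed alleles together with Alb-Cre, a Cre recombinase under the hepatocyte-specific promoter of the albumin gene. The mice came from a cohort of females, 8 to 12 weeks old at the start, that ate a purified control diet (PD) for 6 weeks. Some mice of that cohort drank nicotinamide riboside, and whether any of these 6 did is not given in the sources used here. Nuclei of each mouse were marked with a hashtag antibody, 4250 per mouse were sorted, and the pooled nuclei were sequenced from their 3′ ends in 2 RNA pools and 2 hashtag pools.

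Growth hormone binds its receptor Ghr and signals through the kinase Jak2 to the transcription factor Stat5b, which in hepatocytes drives Igf1, whose product in blood comes mainly from the liver, Igfals, the subunit that holds IGF1 in a long-lived plasma complex, and Socs2, a feedback inhibitor of the receptor. Insulin binds Insr, which phosphorylates the adaptors Irs1 and Irs2 and activates Akt, and Akt keeps Foxo1 out of the nucleus, so that Igfbp1 and Irs2 fall after feeding and rise in fasting. Igfbp1 and Igfbp2 are secreted proteins that bind IGFs, and Lepr is the leptin receptor, of which the liver also makes a soluble form. Hepatocytes differ along the axis from the portal to the central vein, and many metabolic genes are restricted to its periportal or pericentral end.

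All 10 genes are protein coding, and their positions follow GENCODE M21 on GRCm38, the build of the files. Irs1 (chr1:82233101-82291416) and Igfbp2 (chr1:72824503-72852474) are on chromosome 1, Lepr on chr4:101717404-101815352, and Insr (chr8:3122061-3279617) and Irs2 (chr8:10984681-11008458) on chromosome 8. Igf1 (chr10:87858265-87937042) and Socs2 (chr10:95385362-95417180) share chromosome 10, and Igfbp1 is at chr11:7197782-7202546, Ghr at chr15:3317760-3583492 and Igfals at chr17:24865997-24882010. Reads from introns were counted as well as those from exons. Irs2 overlaps the transcript 9530052E02Rik on the other strand by 609 bases, and the latter had 271 UMIs in hepatocytes against 5647 of Irs2.

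The promoters are shown because the genes belong to pathways that end on known DNA motifs. RefSeq (GRCm38.p6) gave 13 start sites for 8 of the 10 genes. The 250 bases before each start were searched on both strands for TTCNNNGAA (bound by STAT5), TGTTTAC (bound by FOXO factors; its reverse complement is GTAAACA) and CAAAACA (the core of the insulin response element; its reverse complement is TGTTTTG). The STAT5 motif was in 2 windows, both of Igfals, against 7.02% of 32807 promoter windows in the genome. The FOXO motif was in 1 window, again of Igfals, against 3.16% of all windows. CAAAACA was in 4 windows, those of Igfbp1, Irs1, Irs2 and 1 start of Lepr, against 5.57% of all windows. The Lepr window lies within an annotated untranslated first exon of other Lepr transcripts and is not printed. The windows of Ghr, Igf1 and Igfbp2 held none of the 3 motifs, which says only that these letters are not in these 250 bases. The windows of Igfbp1, Irs1 and Irs2 and the Igfals window that holds the other pair of motifs are given 5′ to 3′ on the strand of the gene, with the matches in capitals, and end at the base before the annotated start.
Igfbp1, chr11:7197537-7197786, plus strand: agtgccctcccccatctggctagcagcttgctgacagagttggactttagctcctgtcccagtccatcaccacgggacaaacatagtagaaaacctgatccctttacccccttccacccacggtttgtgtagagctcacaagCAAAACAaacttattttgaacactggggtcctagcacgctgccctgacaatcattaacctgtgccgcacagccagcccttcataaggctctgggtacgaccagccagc
Irs1, chr1:82291440-82291689, minus strand: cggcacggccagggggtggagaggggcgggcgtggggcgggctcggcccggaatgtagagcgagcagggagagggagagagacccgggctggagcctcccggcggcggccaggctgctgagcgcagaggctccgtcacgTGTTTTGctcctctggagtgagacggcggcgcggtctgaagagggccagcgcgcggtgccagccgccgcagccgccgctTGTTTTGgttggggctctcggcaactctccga
Irs2, chr8:11008930-11009179, minus strand: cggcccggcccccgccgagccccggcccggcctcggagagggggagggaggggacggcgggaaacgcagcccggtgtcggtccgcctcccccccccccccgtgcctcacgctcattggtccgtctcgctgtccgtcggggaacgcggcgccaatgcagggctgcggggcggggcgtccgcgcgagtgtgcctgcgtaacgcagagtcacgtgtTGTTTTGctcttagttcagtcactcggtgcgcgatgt
Igfals, chr17:24877981-24878230, plus strand: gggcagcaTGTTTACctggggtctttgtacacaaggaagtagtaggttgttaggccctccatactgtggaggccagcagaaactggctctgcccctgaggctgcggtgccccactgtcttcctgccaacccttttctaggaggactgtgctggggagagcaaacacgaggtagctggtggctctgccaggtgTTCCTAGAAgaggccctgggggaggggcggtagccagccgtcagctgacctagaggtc

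The matrix held 5193 nuclei, 629 to 1063 per mouse, and 3766532 to 7763269 unique molecular identifiers (UMIs) per mouse. Hepatocytes made up 4410 nuclei (562 to 847 per mouse), endothelial cells 245, CD45+ cells 177, stellate cells 171, cholangiocytes 110 and Kupffer cells 80. The hepatocyte sum of HNKO mouse 3 stood apart, with 8 hepatocyte markers at 12010 CPM (UMI counts scaled by the total of the sum) together against 25839 to 31394 CPM in the other 5 mice. Its TMM factor, the composition term by which a library is scaled, was 1.28 against 0.92 to 1.01 in the others. Most hepatocyte nuclei of WT mice 1 and 3 and of HNKO mice 1 and 3 fell into clusters that held few nuclei of any other mouse. In hepatocyte sums, 6 cholangiocyte markers (1 of them at 0) summed to 301 to 337 CPM in WT mice but to 614, 294 and 496 CPM in the 3 HNKO mice, and 5 stellate markers to 37.1 to 87.4 CPM and 193, 29.5 and 121 CPM. Their part in the results below was not tested. The endothelial, stellate, Kupffer and cholangiocyte marker lists were each highest in the cell type they name, as for endothelial cells, whose 6 markers were at 8541 to 12448 CPM there and 30.4 to 43.4 CPM in hepatocytes. The 6 CD45+ markers, which include Ptprc and Cd74, genes that Kupffer cells also express, were at 2611 to 4528 CPM in CD45+ cells and 2688 to 4015 CPM in Kupffer cells. Nampt, the targeted gene, had hepatocyte levels after TMM scaling of 92.2, 109 and 104 CPM (WT) and 92.3, 148 and 71.5 CPM (HNKO). Introns were counted, and the deleted part of Nampt is not given in the sources used here, so these counts checked no genotype label.

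Along the portal-to-central axis, 7 of the 10 genes differed between hepatocytes of the same mice. Irs2, Irs1, Socs2, Igfbp1 and Ghr were higher at the pericentral end, and Lepr and Igf1 were higher at the periportal end. The hepatocyte nuclei of each mouse were ranked by a score of 10 pericentral landmark genes, such as Glul and Cyp2e1, minus 10 periportal landmark genes, such as Cyp2f2 and Hal, none of which is among the 10 genes. They were split within each mouse into 3 equal parts, the periportal, middle and pericentral zone, with 187 to 283 nuclei each. A zone is thus relative to its mouse. The 10 periportal landmarks summed to 5261 CPM in the periportal zone of HNKO mouse 3. In the pericentral zone of WT mice they summed to 5379 to 6693 CPM. The outer zones were summed and compared with edgeR with the mouse as a block, at an FDR threshold of 0.05. The background of this comparison is large, with 11.5% of 8699 genes called higher in the pericentral zone and 8.67% higher in the periportal zone. Against that, 5 of the 10 genes were called pericentral and 2 periportal.

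Irs2, the insulin receptor adaptor that is induced in fasting, had the largest of these differences. Its level in the periportal zone was 211, 196 and 94.4 CPM in WT mice 1, 2 and 3 and 148, 116 and 54.7 CPM in HNKO mice 1, 2 and 3. In the pericentral zone it was 353, 457 and 174 CPM in WT mice and 333, 272 and 91.2 CPM in HNKO mice, and so higher in 6 of 6 mice. The log2 difference was 1.10 (SE 0.09, edgeR FDR 2.31e-08). Irs1, the sister adaptor, rose from 94.8 to 194 CPM in the periportal zone to 141 to 334 CPM in the pericentral zone, in 6 of 6 mice (log2 difference 0.81, SE 0.08, edgeR FDR 6.14e-07). Insr, the receptor upstream of both adaptors, was at 469 to 718 CPM in the periportal zone and 419 to 683 CPM in the pericentral zone. It was higher in the pericentral zone in 2 of 6 mice, with a log2 difference of 0.00 (SE 0.06, edgeR FDR 0.98).

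Igfbp1, the insulin-repressed IGF binding protein, was at 459, 454 and 257 CPM in the periportal zone of WT mice and at 692, 654 and 395 CPM in the pericentral zone. In HNKO mice it went from 362, 372 and 54.7 CPM to 505, 514 and 104 CPM. All 6 mice moved the same way, by 0.55 to 0.94 on the log2 scale (log2 difference 0.66, SE 0.07, edgeR FDR 5.85e-07). Socs2, the feedback inhibitor of the growth hormone receptor, was also higher pericentrally in 6 of 6 mice (log2 difference 0.80, SE 0.13, edgeR FDR 0.000161). Its levels ranged from 6.4 to 138 CPM in the periportal zone and 12.8 to 252 CPM in the pericentral zone, and the mice differed far more from each other than the zones did. Ghr, the receptor itself, had a small difference in the same direction, from 7043 to 8468 CPM periportally to 8212 to 9353 CPM pericentrally (log2 difference 0.25, SE 0.05, edgeR FDR 0.00244).

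Igf1, the hormone itself, was higher at the other end. It was at 2380, 2163 and 952 CPM in the periportal zone of WT mice and 1782, 1706 and 631 CPM in the pericentral zone. In HNKO mice it was at 2168, 2648 and 790 CPM periportally and 1706, 2234 and 430 CPM pericentrally. It was thus lower pericentrally in 6 of 6 mice (log2 difference -0.39, SE 0.08, edgeR FDR 0.00141). Lepr was at 505, 405 and 397 CPM in the periportal zone of WT mice and 157, 225 and 409 CPM in the pericentral zone, so that WT mouse 3 did not share the difference. In HNKO mice it fell from 156, 298 and 113 CPM to 59.8, 134 and 64.4 CPM (over all 6 mice log2 difference -0.86, SE 0.15, edgeR FDR 0.00044). Igfals, at 5.3 to 18.5 CPM periportally and 6.0 to 19.1 CPM pericentrally, was not called (log2 difference 0.15, SE 0.20, edgeR FDR 0.69).

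**Figure D1:**
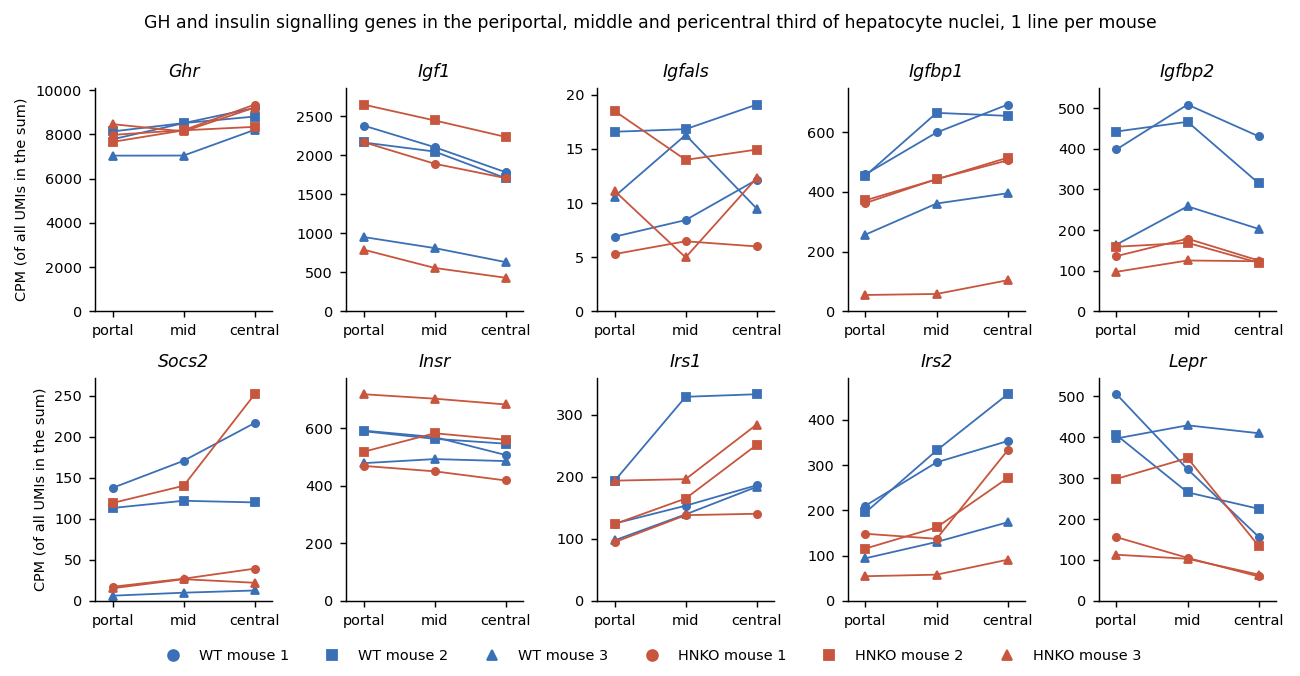
Level of each gene (CPM of all UMIs in the sum, linear axis from 0) in the periportal, middle and pericentral zone of hepatocyte nuclei, with 1 line per mouse, WT in blue and HNKO in red. Irs2, Irs1 and Igfbp1 are higher in the pericentral than in the periportal zone in 6 of 6 mice, though not every line rises through the middle zone. Igf1 is lower in the pericentral zone in 6 of 6, and Igfbp2 is highest in the middle zone in all mice.

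Fitting the zones without the mouse block left 1 of the 7 calls, Irs1. The periportal zone was deeper, with a median of 4314 to 6667 UMIs per nucleus against 3077 to 4954 in the pericentral zone, and 12.6% to 19.2% of nuclei lay within 0.1 SD of a boundary. The difference between zones was not found to depend on genotype. Tested as an interaction, 0 of the 10 genes were called (0.0103% of 9672 genes), and 1 had an unadjusted p under 0.05, Socs2 (HNKO minus WT 0.56 on the log2 scale, SE 0.23, edgeR FDR 0.82).

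Igfbp2 was neither periportal nor pericentral by this measure. Its log2 difference between the outer zones was 0.02 (SE 0.10, edgeR FDR 0.91), but it was highest in the middle zone in 6 of 6 mice, at 509, 466 and 258 CPM in WT mice and 179, 168 and 125 CPM in HNKO mice, although in HNKO mouse 3 the pericentral zone was close behind. In the authors' clusters named Central, which hold 19.6% to 36.9% of the pericentral zone, Igfbp2 was at 29.0 to 62.4 CPM. In the 16 sums of the other hepatocyte clusters it was at 85.7 to 566 CPM. The Central cluster of each mouse was below all other clusters of that mouse in 6 of 6 mice for Igfbp2 and for Lepr, and above them in 6 of 6 for Irs2. Igf1 was lowest in the Central cluster in 5 of 6 mice, and Ghr, Igfbp1 and Irs1 were highest there in 5 of 6. These clusters were built from the same counts, so the values are a description and were not tested.

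The cluster named Hepatocytes 2 had low Ghr. Ghr was at 5727 to 6778 CPM there and below the other clusters outside Central in 5 of 5 mice, as was Igf1. Insr was below the same clusters in 4 of 5 mice, and Igfals was highest there in 4 of 5, though at no more than 38.5 CPM and from 2 to 6 UMIs a sum. Nuclei of Hepatocytes 2 held fewer UMIs each than those of the other clusters outside Central in the same mice. The part of this depth in the values was not tested. Socs2 differed more between mice than between clusters, and was at 6.0 to 13.0 CPM in all 4 clusters of WT mouse 3 and at 102 to 216 CPM in the clusters of WT mice 1 and 2 outside Central.

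**Figure D2:**
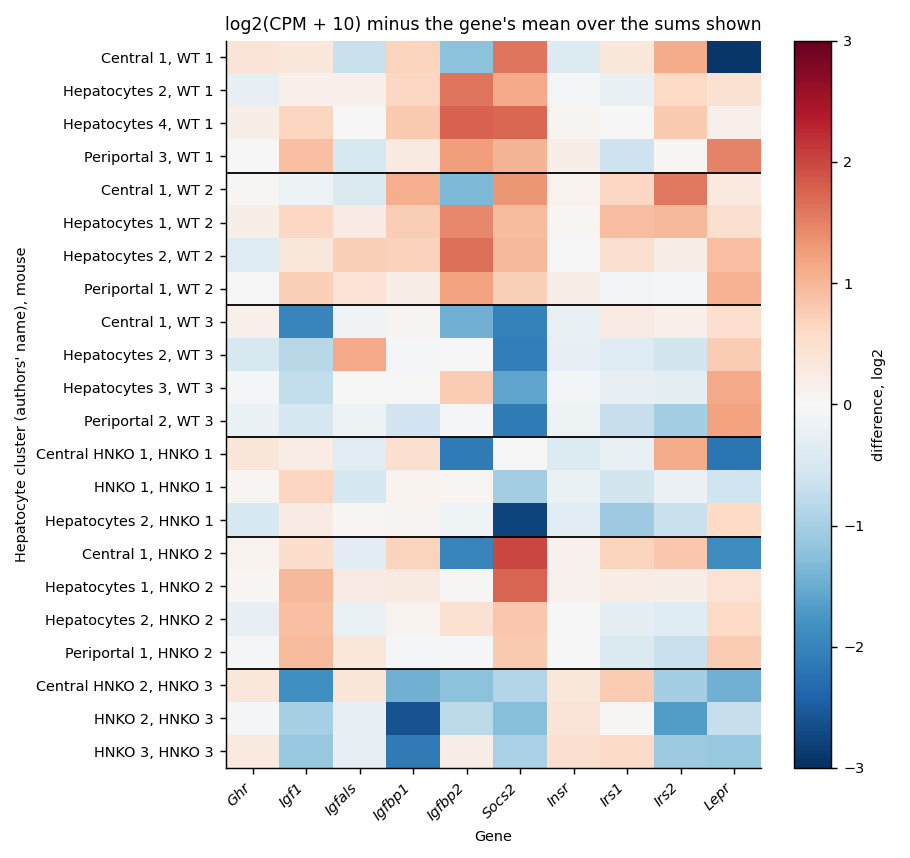
Level of each gene in 22 sums of a hepatocyte cluster and a mouse with at least 20 nuclei, as log2(CPM + 10) minus the gene's mean over the sums shown (color scale), with rows grouped by mouse. Igfbp2 is low in the Central rows, and Lepr is lower and Irs2 higher in them than in the other rows of the same mouse. Socs2 and Igf1 are low in every row of WT mouse 3 and of HNKO mouse 3. Socs2 is also low in 2 rows of HNKO mouse 1, the clusters HNKO 1 (23.5 CPM) and Hepatocytes 2 (0 CPM), and is at 58.6 CPM in its Central row.

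Over the same 22 sums, the genes whose log2(CPM + 10) followed each of the 10 most closely were looked up among 5248 genes with a mean of at least 20 CPM. These correlations are across sums that share mice and clusters, and they are given as a description. Socs2 was most like Usp6nl (Pearson's r 0.91) and Prlr (0.89), the prolactin receptor. Igfbp1 was most like Slc25a47 (0.95) and Herpud1 (0.91), Irs2 like Mpc2 (0.88) and Eci2 (0.86), and Irs1 like Aldh3a2 (0.89). Igf1 was most like Cp (0.85), which encodes ceruloplasmin, and Rab30 (0.85), and Ghr like Cdh2 (0.90), which encodes N-cadherin. Insr was most like Arhgap29 (0.89) and 0610005C13Rik (0.87), and Igfbp2 like ENSMUSG00000103288 (0.85). Igfals did not reach 20 CPM.

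Between genotypes, none of the 10 genes passed the test in hepatocytes, and 0% of 11810 genes did (edgeR, smallest FDR 0.82, 698 genes at an unadjusted p under 0.05). DESeq2 on the same sums called 21 genes, Igfbp2 among them (DESeq2 adjusted p = 0.035). Among the 10, 2 had an unadjusted p under 0.05, Igfbp2 and Lepr, and these were also the 2 whose WT and HNKO mice did not overlap. Non-overlap was found for 11.6% of all genes tested.

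Igfbp2 was at 481, 426 and 217 CPM after TMM scaling in WT mice 1, 2 and 3 and at 159, 149 and 89.8 CPM in HNKO mice 1, 2 and 3. Every HNKO mouse was below every WT mouse, with means of 375 ± 139 and 133 ± 37.6 CPM (SD, n = 3). The log2 fold change was -1.49 (SE 0.35, edgeR unadjusted p = 0.00264, FDR 0.82). Without filtering of low counts the edgeR FDR was 0.045. Over all alternatives tried, edgeR and DESeq2 together, the adjusted p ranged from 0.035 (DESeq2) to 0.98. Lepr was at 365, 315 and 438 CPM in WT mice and 120, 263 and 75.1 CPM in HNKO mice, and HNKO mouse 2 was closest to the WT range. Its log2 fold change was -1.29 (SE 0.43, edgeR unadjusted p = 0.0168, FDR 0.82). Over the same edgeR and DESeq2 alternatives the adjusted p of Lepr ranged from 0.073 to 0.98.

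Igf1 was at 2284, 2059 and 868 CPM after TMM in WT mice and 2121, 2450 and 478 CPM in HNKO mice, with mouse 3 of each genotype far below the others. The log2 fold change was -0.05 (SE 0.61, edgeR FDR 0.99) and turned positive when WT mouse 1, WT mouse 2 or HNKO mouse 3 was left out. Socs2 was at 189, 123 and 10.1 CPM in WT mice and 30.3, 165 and 16.6 CPM in HNKO mice. Its range within WT mice, 4.10 on the log2 scale, was wider than that of 99.97% of all genes tested, and its log2 fold change was -0.60 (SE 1.04, edgeR FDR 0.93). Ghr was far steadier, at 9205, 8804 and 7915 CPM in WT mice and 9321, 8001 and 6759 CPM in HNKO mice (log2 fold change -0.11, SE 0.34, edgeR FDR 0.96). Before TMM scaling HNKO mouse 3 had the highest Ghr level, at 8582 CPM, and after it the lowest. Igfals was at 6.4 to 18.1 CPM with overlapping genotypes (log2 fold change -0.45, SE 0.39, edgeR FDR 0.85).

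Igfbp1 was at 628, 607 and 352 CPM after TMM in WT mice and 476, 435 and 55.5 CPM in HNKO mice (log2 fold change -0.72, SE 0.66, edgeR FDR 0.85). Irs2 was at 311, 335 and 138 CPM in WT mice and 225, 177 and 52.4 CPM in HNKO mice (log2 fold change -0.79, SE 0.53, edgeR FDR 0.83). For both, HNKO mouse 3 was lowest of all mice and WT mouse 3 lowest of the WT mice. Irs1 was at 167, 292 and 146 CPM in WT mice and 135, 175 and 175 CPM in HNKO mice (log2 fold change -0.32, SE 0.28, edgeR FDR 0.85). Insr was at 606, 590 and 519 CPM in WT mice and 490, 548 and 553 CPM in HNKO mice. Its narrow range in HNKO mice, smaller than that of all but 7.41% of genes, depended on TMM scaling, before which it was at 447, 551 and 703 CPM with HNKO mouse 3 the highest of all mice (log2 fold change -0.11, SE 0.19, edgeR FDR 0.93). In all, 6 of the 10 genes (Ghr, Igf1, Igfbp1, Igfbp2, Socs2 and Irs2) were lowest in mouse 3 of both genotypes after TMM scaling, against 10.8% of all genes. This count was not among the planned comparisons and was not tested, and before TMM scaling HNKO mouse 3 had the highest Ghr level. The mouse numbers come from the order of the hashtag names and pair no animals.

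**Figure D3:**
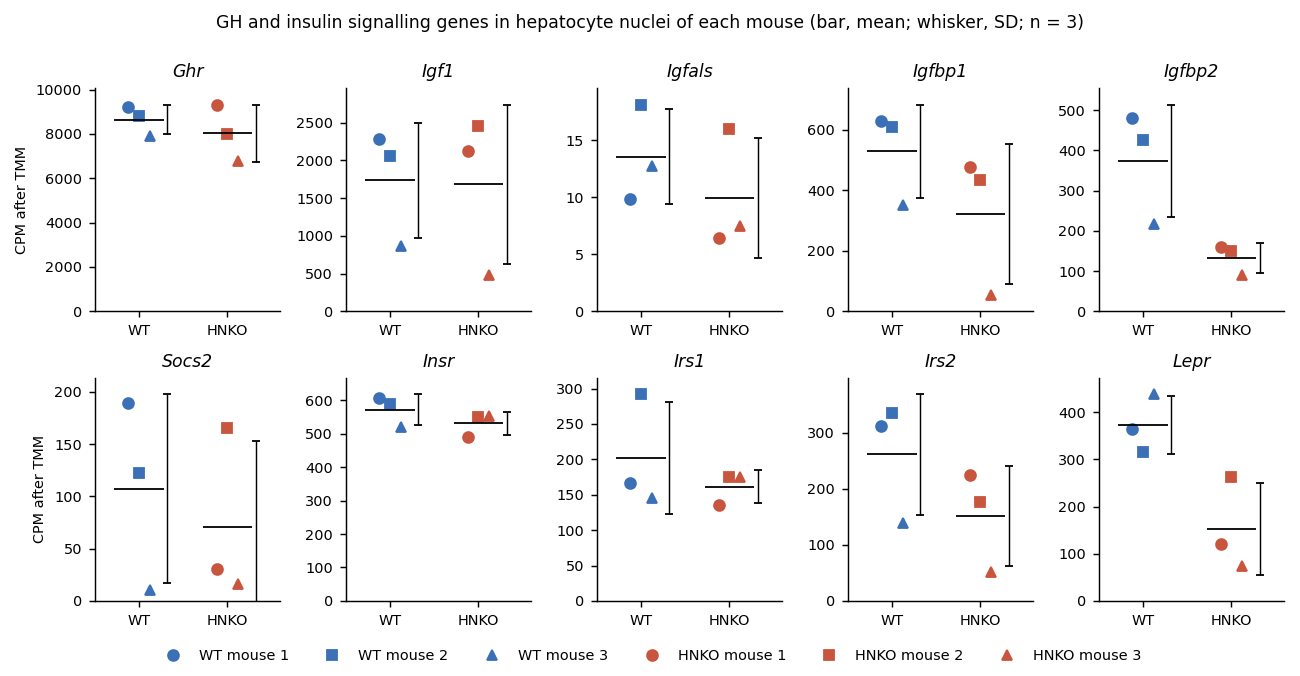
Level of each gene in the hepatocyte sum of each mouse (CPM after TMM, linear axis from 0), with WT in blue and HNKO in red, the mean as a bar and the SD as a whisker beside it (n = 3, cut at 0 for Socs2). Igfbp2 and Lepr are the genes whose genotypes do not overlap, and Igf1, Igfbp1, Socs2 and Irs2 have a mouse far below the others within a genotype.

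The other genes of the pathways were read in the same comparison, with CPM after TMM, and 0 of them passed the test. Among genes that growth hormone keeps higher in female than in male liver, 20 of 21 were lower in HNKO mice, with a median log2 fold change of -0.76 against 0.02 over all genes. The mice of the genotypes overlapped. The list's median deviation from the mean of all mice was 0.52, 1.07 and -0.11 (log2) in the WT group and -1.46, 0.75 and -0.67 in HNKO mice, so that HNKO mouse 2 lay above 2 of the 3 WT mice. Prlr, which is also on this list, was at 2908, 2920 and 367 CPM in WT mice and 803, 1928 and 989 CPM in HNKO mice, and like Socs2 it was lowest in WT mouse 3. Sult3a1, a sulfotransferase, was at 63.2, 32.1 and 30.8 CPM in WT mice and 5.8, 23.8 and 1.9 CPM in HNKO mice (log2 fold change -2.01, SE 0.76, edgeR FDR 0.82). Acsm3, an acyl-CoA synthetase, had a log2 fold change of -0.50 (SE 0.23, edgeR FDR 0.82). Of 19 male-biased targets 8 were higher and 11 lower, with a median of -0.19. Of the urinary protein genes on this list, Mup20 was at 13.6, 7.9 and 8.7 CPM in the WT group and 117, 7.0 and 71.6 CPM in the HNKO group, and Mup3 was at 122 to 252 CPM and 91.8 to 94.3 CPM. Mup genes are near-identical copies, and reads can be split between them.

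Of the signal transducers, 13 genes of the growth hormone receptor and STAT5 pathway had a median log2 fold change of 0.06, and Jak2 was at 34.2, 26.8 and 33.2 CPM in WT mice and 20.3, 28.4 and 29.4 CPM in HNKO mice. The 40 genes of insulin receptor signalling had a median of 0.02. Mapk3, the ERK1 kinase, had a log2 fold change of 0.77 (SE 0.32, edgeR FDR 0.82), and Pik3cb, a PI 3-kinase catalytic subunit, -0.37 (SE 0.17, edgeR FDR 0.82). Of 12 genes that Foxo1 induces, 9 were lower in HNKO mice and the median was -0.32. G6pc, which releases glucose in gluconeogenesis, was at 2153, 1465 and 1350 CPM in WT mice and 1417, 783 and 218 CPM in HNKO mice, with HNKO mouse 1 inside the WT range. Mttp, which loads lipid onto apolipoprotein B, was at 304, 191 and 250 CPM against 143, 217 and 104 CPM. In HNKO mouse 3 the Foxo1 list lay 0.85 below its mean, and in the other 5 mice 0.19 to 0.35 above it. Genes that insulin and SREBP1c induce had a median of -0.18 over 13 genes, with Srebf1 at -0.38 (SE 0.31) and Pklr, the liver pyruvate kinase, at 0.39 (SE 0.47). The IGF system list had 3 of 11 genes with enough counts, of which Igfbp7 was at 3.4 to 5.8 CPM in WT mice and 1.2 to 3.6 CPM in HNKO mice, and Igf2r had a log2 fold change of 0.42 (SE 0.24). Ptpn1, a phosphatase that dampens leptin and insulin signals, was at 12.6 to 13.9 CPM in WT mice and 13.4 to 19.3 CPM in HNKO mice.

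The same lists were then counted between the outer zones of the hepatocytes, a reading added after the values had been seen. Of 13 genes that insulin and SREBP1c induce, 10 were higher in the periportal zone and 0 in the pericentral zone, against 8.67% and 11.5% of all genes (median log2 difference -0.57 against -0.01 over all genes). Among them were Acly (-1.88, SE 0.12, edgeR FDR 9.42e-10) and Acaca (-1.32, SE 0.07, edgeR FDR 1.87e-10), which supply acetyl-CoA and malonyl-CoA for fatty acid synthesis. Srebf1 itself had a smaller difference (-0.37, SE 0.08, edgeR FDR 0.00305). The 33 insulin receptor signalling genes were near the background of 11.5% pericentral and 8.67% periportal, with 6 pericentral, including Foxo3 (0.49, SE 0.08), Pik3r1 (0.31, SE 0.07) and Foxo1 (0.24, SE 0.08, edgeR FDR 0.047), and 2 periportal. In the growth hormone pathway Stat5b was higher periportally (-0.28, SE 0.07, edgeR FDR 0.00838), as was Cux2 (-0.65, SE 0.09), a female-specific transcription factor, whereas Prlr was higher pericentrally (0.30, SE 0.07). Among 20 female-biased targets 10 were pericentral and 5 periportal, beside the same 11.5% and 8.67%, with Sult3a1 at 5.24 (SE 0.29) and Cyp17a1 at -1.87 (SE 0.18) as examples of either end. The pericentral share was not particular to them, as among 13 male-biased targets 6 were pericentral and 1 periportal. The median log2 difference was 0.22 for the female-biased and 0.41 for the male-biased list.

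Across cell types, most of the 10 genes were highest in hepatocytes. Against endothelial cells 8 of 10 were higher in hepatocytes (30.2% of 9656 genes), against stellate cells 9 (26.7% of 9445 genes), against CD45+ cells 9 (22.6% of 9565 genes) and against Kupffer cells 7 (19.9% of 10548 genes). None of the 10 was called higher in the other cell type, where 19.1%, 16.2%, 14.3% and 10.6% of genes were. These were edgeR fits with the mouse as a block, over 6 mice for endothelial and stellate cells, 5 for CD45+ cells and the 3 HNKO mice for Kupffer cells. Some calls rest on genes that passed the filter through their hepatocyte counts, such as Igfals (0 to 1 UMI in each endothelial and stellate sum). Against Kupffer cells these include Igfbp2, Irs1 and Irs2 (0 to 3 UMIs in each Kupffer sum), and Igfbp1 held only 2 to 4. In genotype fits within a single cell type, Igfbp2, Socs2, Irs1 and Irs2 also failed the filter in endothelial cells. Igfbp1, Igfbp2, Socs2, Irs1, Irs2 and Lepr failed it in stellate cells, and Igfbp2, Irs1 and Lepr in CD45+ cells. The counts of calls are therefore no measure of the 10 genes as a set. The median log2 difference of all genes was 0.28, 0.32, 0.24 and 0.62 toward hepatocytes in the 4 fits.

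Hepatocyte markers were counted in every other cell type, at levels that differed between mice. The 8 hepatocyte markers were at 11.4% to 45.4% of their hepatocyte level in endothelial sums. Ghr, at 1772 to 2844 CPM in endothelial cells, was at 22.7% to 33.1% of its hepatocyte level and lay inside the range of the markers in every mouse. So did Irs1 in all 6 mice. At such a level, expression in endothelial cells and hepatocyte RNA in their sums cannot be told apart. Socs2 was above all 8 markers in 4 of 6 mice, up to 196% of its hepatocyte level, but held only 1 to 18 UMIs in an endothelial sum, and was not called without the mouse block. Igfals held at most 1 UMI in an endothelial or stellate sum and none in a Kupffer sum, so that no fold is given for it.

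Insr and Lepr were the 2 genes above all 8 markers in endothelial cells of every mouse. Insr was at 414, 935 and 1062 CPM in endothelial cells of WT mice and 888, 488 and 782 CPM in those of HNKO mice, which is 74.3% to 219% of the hepatocyte level and as a percentage above each marker in 6 of 6 mice. Its log2 difference between hepatocytes and endothelial cells was -0.09 (SE 0.17, edgeR FDR 0.69). Lepr was at 168, 303 and 203 CPM in endothelial cells of WT mice and 145, 211 and 243 CPM in those of HNKO mice, or 49.6% to 256% of the hepatocyte level. Its log2 difference was 0.39 (SE 0.21, edgeR FDR 0.12). Single nuclei weighed on these sums: 1 nucleus held 54.5% of the 28 Lepr UMIs and 1 nucleus 43.5% of the 85 Insr UMIs in WT mouse 2. The log2 fold change of Lepr between genotypes was -1.29 in hepatocytes and -0.22 in endothelial cells (endothelial SE 0.32, edgeR FDR 0.996), each from the fit of that cell type alone. In a joint fit of both cell types with the mouse as a block, the genotype effect in hepatocytes minus that in endothelial cells was -1.33 on the log2 scale (SE 0.35, unadjusted p = 0.00014, edgeR FDR 0.089). No gene of the 10 was called in this interaction, against 0.113% of 11517 genes, but Lepr was called when WT mouse 2 or HNKO mouse 2 was left out.

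**Figure D4:**
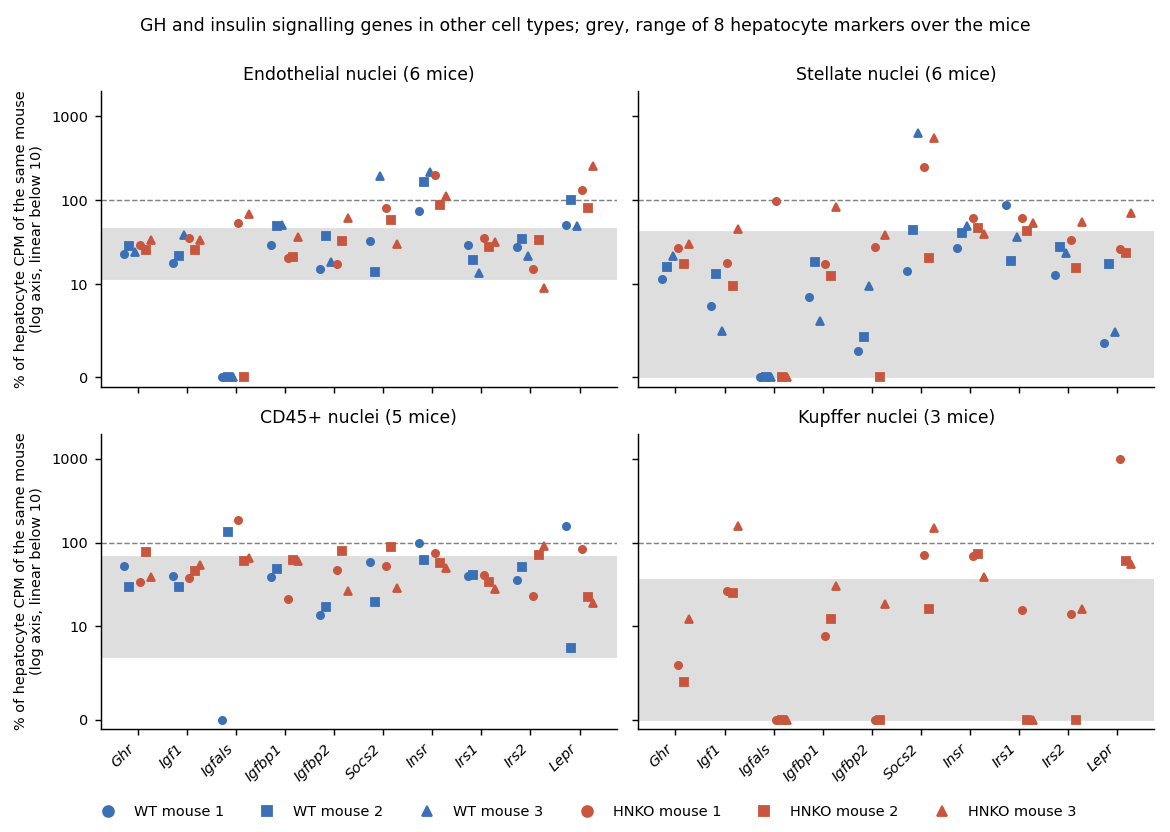
Level of each gene in endothelial, stellate, CD45+ and Kupffer nuclei as a percentage of the hepatocyte CPM of the same mouse (log axis, linear below 10), 1 point per mouse, with the range of 8 hepatocyte markers over the mice in grey and equality as a dashed line. Insr and Lepr lie above the grey band in endothelial nuclei of all 6 mice, whereas Ghr and Irs1 lie within it.

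In stellate cells, Socs2 was at 24.7, 52.9 and 59.9 CPM in WT mice and 69.4, 34.2 and 118 CPM in HNKO mice. This was 14.2% to 635% of the hepatocyte level, above all 8 markers of the same mouse in 6 of 6 mice, and Socs2 was the gene of the 10 that was not called against stellate cells (log2 difference 0.06, SE 0.50, edgeR FDR 0.93). Without HNKO mouse 3 it was called too, as all 10 genes then were. The sums rested on 2 to 16 Socs2 UMIs. Insr, at 26.6% to 60.8% of its hepatocyte level from 12 to 47 UMIs, was above all 8 markers in stellate cells of 5 of 6 mice, as were Irs1 and Irs2 from 3 to 16 and 3 to 12 UMIs, though all 3 were called higher in hepatocytes. In cholangiocytes, which only the HNKO mice had in number (40, 10 and 58 nuclei), Socs2 was at 265, 197 and 225 CPM, from 69, 8 and 80 UMIs. In each of these mice that was above the hepatocyte level of 27.5, 166 and 21.1 CPM and, as a percentage of that level, above all 8 markers. This value was singled out after it had been seen and was not tested.

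In Kupffer cells of the 3 HNKO mice, Lepr was at 1080, 162 and 53.2 CPM, from 111, 6 and 5 UMIs, and 39.5% of the UMIs in HNKO mouse 1 came from 1 nucleus (log2 difference, hepatocytes minus Kupffer cells, -0.34, SE 0.47, edgeR FDR 0.66). That difference was called toward Kupffer cells without HNKO mouse 2 (-1.22, edgeR FDR 0.040) and without HNKO mouse 3 (-1.18, edgeR FDR 0.038), and was 1.44 toward hepatocytes without HNKO mouse 1 (edgeR FDR 0.13). Insr was above all 8 markers in Kupffer cells of 3 of 3 mice, at 39.4% to 73.4% of its hepatocyte level, and was called higher in hepatocytes, but not without HNKO mouse 1. Igf1, which macrophages also make, was at 514, 620 and 947 CPM there, and in HNKO mouse 3 this was 156% of the hepatocyte level. The test called Igf1 higher in hepatocytes over the 3 mice (1.77, SE 0.54, edgeR FDR 0.00466), but not without HNKO mouse 1 or HNKO mouse 2. Igfbp2, Irs1, Irs2, Socs2 and Igfals held 0 to 3 UMIs in each Kupffer sum, so that no level could be read from them at this depth. In CD45+ cells the markers were at 6.7% to 67.6% of the hepatocyte level, and Ghr, Igf1 and Irs1 were at 29.2% to 77.8%, 29.5% to 53.5% and 27.6% to 41.6%. Insr, at 49.6% to 98.5%, was above all 8 markers of the same mouse in 3 of 5 mice and below all in 0. Irs2, at 23.1% to 91.9% from 5 to 13 UMIs, was above them in 3 and below in 1. Lepr, at 7.7% to 158% from 1 to 26 UMIs, was above them in 2 and below in 3. All 3 were called higher in hepatocytes.

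Between genotypes in the other cell types, 5 of the 10 genes had enough counts in endothelial cells, 3 in stellate cells and 6 in CD45+ cells. None was called, and 0% of 2743, 2266 and 2703 genes were (edgeR, with 104, 160 and 222 genes at an unadjusted p under 0.05; DESeq2 called 1, 1 and 4 genes and none of the 10). Igfbp1 in endothelial cells was the 1 gene with an unadjusted p under 0.05. It was at 168, 286 and 166 CPM in WT mice and 88.1, 92.1 and 25.6 CPM in HNKO mice, from 4 to 28 UMIs a sum (log2 fold change -1.52, SE 0.43, edgeR FDR 0.996). As a share of the hepatocyte level of the same mouse it was at 20.3% to 50.4%, beside the 11.4% to 45.4% of the hepatocyte markers.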

How the data were processed

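Nuclei from the livers of 3 WT and 3 HNKO mice were measured by snRNA-Seq with hashtag antibodies. The authors generated FASTQ files with Cell Ranger 5.0.1 and quantified reads with Alevin on GRCm38, spliced and unspliced transcripts together. They called the hashtags, removed doublets and clustered the nuclei in Seurat. The deposited estimated counts of UMIs per gene and nucleus were used, of which 10.07% of nonzero values were more than 0.001 from a whole number, together with the authors' mouse, genotype and cluster names. The SCTransform-corrected and hashtag matrices were not used. For each mouse, counts of a cell type, cluster or zone were summed (at least 10 nuclei, or 20 for a cluster), rounded, and tested with edgeR 4.0.16 (filterByExpr, TMM, quasi-likelihood test, R 4.3.3) at an FDR of 0.05, with the mouse as a block where cell types or zones of the same mice were compared. WT mouse 3 had 7 CD45+ nuclei and was left out of that comparison. CPM are counts scaled to the UMI total of the sum. In the hepatocyte comparison of genotypes, with its pathway lists and Nampt, they are after TMM scaling unless stated otherwise. DESeq2 1.42.0, RLE factors, no filter on low counts and leaving out each mouse were alternatives. Tested on simulated data, the hepatocyte comparison of genotypes recovered 79.5% of 200 genes changed by 2 on the log2 scale among 11810, and the zone comparison 99% among 8699. Recovery was lowest in the interaction of genotype and cell type (28.5%), hepatocytes against Kupffer cells (46%) and the genotype comparison in CD45+ cells (55%). These shares hold for 200 genes changed together, whereas the real hepatocyte comparison of genotypes called 0 genes. They therefore do not tell how often a single gene with such a change would be called. Mup20, with a log2 fold change of 2.71 there, had an edgeR FDR of 0.82. Named genes were the 10 members, Nampt, the 2 genes of each list with the smallest unadjusted p where none passed the test, and the 2 genes most like each member, some of which are not reported here; genes named from the zone reading of the lists and the cholangiocyte values were chosen after their values were seen. The members and lists were chosen with earlier results of these data known. Mice were numbered in the order of their hashtag names.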

Additional observations from a re-analysis of the deposited data

How the results depend on the processing

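With 3 mice per genotype the hepatocyte comparison called 0 genes, and this count depended on the tool and the filter. DESeq2 called 21 genes, the fit without a filter on low counts 35 and the fit without HNKO mouse 2 32. Of the 10 genes, 1 was called with no filter and 1 with DESeq2, Igfbp2 in both. The pathway lists had 1 call with no filter and 0 to 2 when a mouse was left out (2 without HNKO mouse 2). In the interaction of genotype and cell type, 0 to 1 of the 10 were called without a mouse, and the genes called went from 13 to 2 with DESeq2, 0 without the mouse block, 32 without HNKO mouse 2 and 5 without HNKO mouse 3. Between zones, 7 of the 10 were called under every alternative but the fit without the mouse block, which called 1, and 285 genes in place of 1756 (DESeq2 1101). Against other cell types, the counts of the 10 called in either direction ranged over 8 to 9 (endothelial), 8 to 10 (stellate) and 5 to 9 (Kupffer, 5 without HNKO mouse 1 and 9 without HNKO mouse 3) when a mouse was left out. The Kupffer counts without HNKO mouse 2 and without HNKO mouse 3 include Lepr, which was called toward Kupffer cells there. The zone-by-genotype fit called 21 genes without a filter in place of 1, and 8 without HNKO mouse 2. In other cell types, 16, 29 and 23 genes were called between genotypes in endothelial, stellate and CD45+ cells without a filter in place of 0, and 47 and 10 in stellate and CD45+ cells without HNKO mouse 2, none of them among the 10.

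Values that did not pass the test changed sign in places, and the cause was not tested. Without a mouse, the genotype log2 fold change ran from -0.419 to 0.405 for Igf1, from -2.19 to 0.0898 for Socs2, from -0.513 to 0.0403 for Irs1 and from -0.227 to 0.0114 for Ghr. As a mean over nuclei of log-scaled counts it was 0.0515 for Igf1, 0.00491 for Ghr and 0.124 for Insr. Between zones, without a mouse, Igfbp2 ran from -0.0492 to 0.115 and Insr from -0.0354 to 0.0312. With no filter they were at -0.00948 and -0.0305, and with the score without Glul, Cyp2e1 and Cyp2f2 at -0.0262 and -0.00657, with Igfals at -0.0110. Without the mouse block Igfbp2 was at -0.00517. Of the other values for single genes, 89 of the genotype comparison and 103 of the zone comparison kept their direction and side of the threshold. No paired analysis was possible because the pool numbers in the labels mark pools that each hold all mice, and mice of different genotypes share no number. The planned analysis of each RNA pool alone was not run, since the barcodes do not tell the pools apart.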
